A study of Sus scrofa with 20 samples.

Results

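The genes described here are those of the matrix, integrin and matrix protease families that could be followed in pig kidney after neurologic death. They are the 65 of 6765 genes on the array whose symbol begins with COL and a digit, LAMA, LAMB, LAMC, ITGA, ITGB, MMP, TIMP, ADAM, THBS, FBLN, FBN or CDH. ITGB2 and THBS2 begin the same way and were left out by the rule. They comprise 15 collagens, 3 laminins, 7 integrin alpha genes, 5 integrin beta genes, 8 matrix metalloproteinases (MMP), 4 tissue inhibitors of metalloproteinases (TIMP), 10 ADAM and ADAMTS genes, 2 thrombospondins, 2 fibulin or fibrillin genes and 9 cadherins. ITGB1BP2, a muscle protein that binds the tail of integrin beta, and CDHR4, a cadherin-related protein, are among them by their prefix alone.

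Kidney cells rest on basement membranes of laminin and type IV collagen and are embedded in an interstitial matrix of fibrillar collagens, microfibrils and glycoproteins. Integrins, each a pair of an alpha and a beta chain, anchor cells to that matrix, and cadherins join neighbouring cells to each other. MMP, ADAM and ADAMTS enzymes cleave matrix and surface proteins, and TIMP proteins bind and inhibit them.

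The study used 20 pigs assigned at random to 2 groups of 10. Controls had anaesthesia, a burr hole and catheters. The ND (neurologic death) animals had the same procedures, and in addition a balloon in the subdural space was inflated until neurologic death was established. All 20 animals, controls included, were ventilated for 6 h and received 0.9% saline in boluses of 2 cc/kg when needed to hold the mean arterial pressure above 35 mmHg, after which kidney tissue was frozen; the sources used here name no breed, age or sex. Each array was taken as 1 animal, named by its group and number (ND_47). The deposited value of a probe set, a group of array probes against the same transcript, was read as a log2 signal, so a difference of 1 is 2-fold. Where a gene had several probe sets, the brightest on average across the 20 arrays stood for it. A difference was called when limma's moderated test, adjusted by Benjamini-Hochberg over 23999 probe sets, gave an adjusted p under 0.05. Values under 2.79, the top of the array's tag and tryptophan control probe sets, were taken as not above background, and signals of different genes were not compared.

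The metalloprotease ADAMTS1 and the integrin chain ITGAV rose in ND, and the other 63 of the 65 genes did not pass the test. ADAMTS1 was 3.09-fold higher and ITGAV 1.23-fold higher. This was 3.08% of the 65, against 9.99% of all 6765 genes, of which 5.44% were higher and 4.55% lower. With ITGB2 (0.83 higher in ND, SE 0.22, adjusted p = 0.0286) and THBS2 (0.93 higher, SE 0.25, adjusted p = 0.0250) put back, 4 of 67 would have passed, or 5.97%. The ITGB2 call was lost without ND_01, Control_157 or Control_187 and the THBS2 call without ND_92, and both were lost without ND_47 and ND_92 together, with a term for animal number up to 100 against above 100 and among the 8 animals of highest number (ITGB2 then 0.20, THBS2 0.59). The calls of ADAMTS1 and ITGAV were also lost with the term for animal number and among those 8 animals, with 0 of the 65 higher in either setting. With limma, 0 of the 65 genes were lower, 6 were lower at an unadjusted p under 0.05 and 9 were higher, together 15, where 30.1% of all genes reached that level. In 0 of the 65 genes did the 2 groups separate without overlap, against 0.591% of all genes. Tested against a minimum fold of 1.2, ADAMTS1 passed alone of the 65, where 1.15% of all genes passed. At an adjusted p under 0.1, 6 were higher and 1, CDH24, lower, where 16.3% of all genes passed.

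The median difference between ND and control was 0.04 over the 65 genes and -0.02 over all genes, and 33 of the 65 were above 0. For the 39 genes above background on all arrays the median was 0.15, with 28 above 0. For the 5392 genes of the whole array so detected it was 0.0049, with 2741 above 0. Of those 39 genes 5.13% passed, against 12.1% of the 5392. Among the 15 genes above background on no array, 0 were above 0. The 95% interval of the difference lay within 2-fold in either direction for 55 of the 65 genes. The differences by family show ADAMTS1, TIMP1 and MMP7 as the genes with an estimate of at least 2-fold. When every array was shifted to the same median, every difference was lowered by the same 0.09, and the median of the 65 turned to -0.05. Then 3 of the 65 were higher (ADAMTS1, TIMP1 and COL6A3) and 15 lower, of which 11 were above background on no array. Over all 6765 genes 404 were then higher and 1644 lower, with a median of -0.11.

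**Figure D1:**
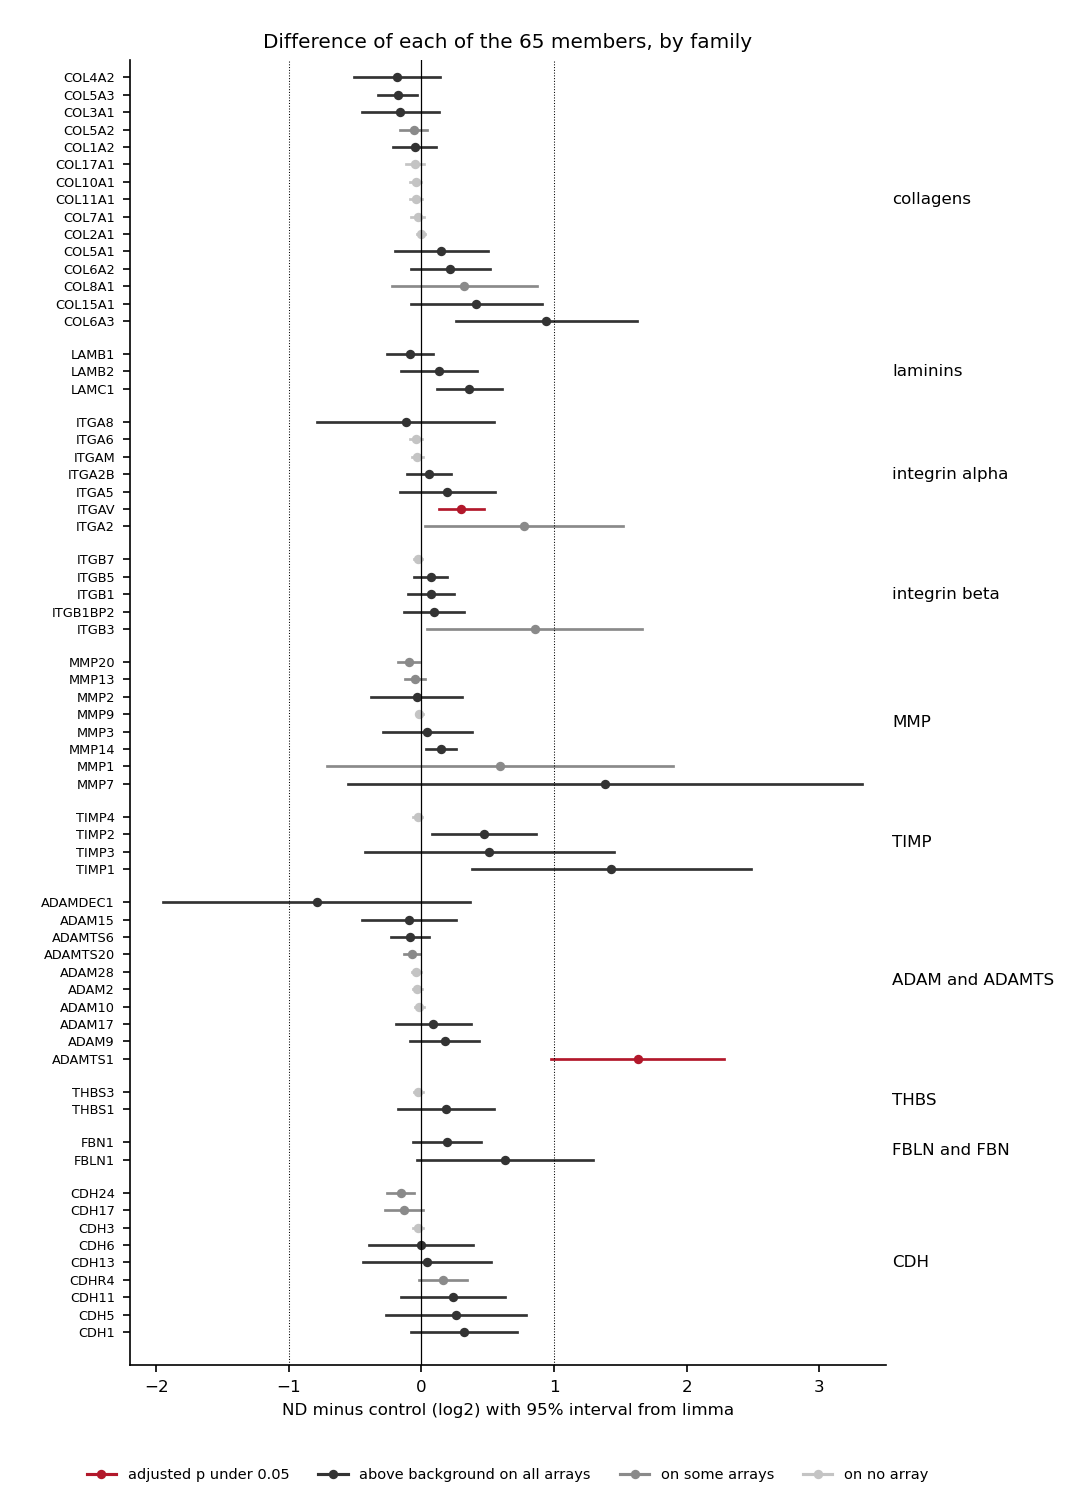
Difference between ND and control (log2, horizontal axis) for each of the 65 genes, grouped by family. Points are limma estimates with their 95% intervals, dotted lines mark 2-fold, red marks an adjusted p under 0.05 and lighter grey marks genes above background on some arrays or on no array. ADAMTS1 (1.63) and ITGAV (0.30) are the 2 red points, and 55 intervals lie wholly between the dotted lines.

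Of the 65 genes, 39 were above background on all 20 arrays, 11 on some arrays and 15 on no array. Those 15, or 23.1% against 12.4% of all genes, were ADAM2, ADAM10, ADAM28, CDH3, COL2A1, COL7A1, COL10A1, COL11A1, COL17A1, ITGA6, ITGAM, ITGB7, MMP9, THBS3 and TIMP4, and their values carry no level that can be read. Their median difference was -0.03, as it was for the 842 genes of the whole array that stayed under background. Those background control probe sets averaged 2.04 in ND (SD 0.03, n = 10) and 2.08 in controls (SD 0.03, n = 10), lower in ND by a permutation test with 100000 resamples (two-sided p = 0.0211, adjusted over 4 array measures 0.0422). The differences of dim genes given below were not corrected for this shift.

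Over all arrays, the array median lay between 5.09 and 5.35 and was 0.09 higher in ND (permutation test, two-sided p = 0.00656, adjusted 0.0262). The signal of 3-prime over 5-prime GAPDH probe sets, a measure of RNA integrity, averaged 1.67 in ND and 1.85 in controls. It differed by -0.18 (permutation test, two-sided p = 0.0858). The same measure for actin was larger, at 4.01 in ND and 4.14 in controls, from 2.60 to 5.30 over the arrays. It differed by -0.13 (permutation test, p = 0.681). A 3-prime excess was thus present in both groups. Animal numbers up to 100 were carried by 7 ND animals and 1 control, and the sources used here do not say what the number stands for. Of the listed markers, 6 of 6 measured for proximal tubule and 3 of 4 for the distal nephron (not SCNN1A) were above background on all arrays, with 0 called by limma (at an unadjusted p under 0.05, 1 and 3 were lower). Leukocyte markers had 5 of 10 higher and 2 lower, endothelial markers 1 of 10 higher, and fibroblast, mesangial and smooth muscle markers 1 of 11 higher. Neutrophil markers had 1 of 6 higher, and urothelium and fat markers 1 of 7 lower. Over all genes 5.44% were higher and 4.55% lower, and 1 call in so short a list carries little. The mean signal of the leukocyte markers ranged from 4.53 to 6.24 in ND and from 4.67 to 5.20 in controls, with 0 of its 10 markers under background on every array. In whole tissue, more cells of a type and more RNA per cell cannot be told apart, and the part of these cell types in the results was not tested.

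Among the structural proteins, 0 of the 15 collagens passed the test, with a median difference of -0.04 and a range from -0.18 to 0.94. COL6A3, a chain of the beaded filaments of type VI collagen, read 7.05 at the lowest, 7.93 at the median and 9.87 at the highest in ND, and 5.89, 7.30 and 8.12 in controls. The groups overlapped, with the highest value in ND_47 and the lowest in Control_190. The difference was 0.94 (SE 0.33, adjusted p = 0.0861), and 0.74 without ND_47. COL6A2, another type VI chain, differed by 0.22, and COL15A1, a basement membrane collagen, by 0.41, and neither passed. Without ND_47 the difference of COL6A2 was 0.14.

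The fibrillar collagens gave no difference that passed. COL1A2 differed by -0.05, COL3A1 by -0.16, COL5A1 by 0.15 and COL5A3 by -0.18 (SE 0.07, adjusted p = 0.114). Without ND_47 the difference of COL5A1 was 0.02, and without Control_02 that of COL3A1 was -0.06. COL4A2, a chain of the main basement membrane collagen, differed by -0.18 with a 95% interval from -0.51 to 0.14, and by -0.10 without ND_31. COL8A1, a short-chain collagen of vessel walls, was above background in 2 ND animals, ND_47 at 4.87 and ND_31 at 3.04, and in 0 controls. COL10A1, a growth plate collagen, differed by -0.04 (adjusted p = 0.163) and was above background on no array. COL5A2, above background on 1 control array, differed by -0.06.

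The 3 laminins were bright on every array and none passed. LAMC1, the gamma chain shared by most laminins, read 9.19, 9.77 and 10.1 (lowest, median and highest) in ND and 8.89, 9.31 and 9.85 in controls. The groups overlapped over most of their range, and ND_31 stood alone at the low end of ND. The difference of 0.36 (SE 0.12, adjusted p = 0.0712) passed when ND_31, Control_02, Control_187 or Control_199 was left out, with an adjusted p of 0.0212 at the lowest. LAMB1 differed by -0.08 (SE 0.08, adjusted p = 0.480) and LAMB2, the beta chain of the glomerular basement membrane, by 0.13 (SE 0.14, adjusted p = 0.504).

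FBLN1, a glycoprotein of basement membranes and elastic fibres, read 7.30, 8.02 and 10.5 in ND and 6.92, 7.92 and 8.10 in controls. In 5 ND animals the value was above every control, with ND_47 (10.5) and ND_92 (9.44) the highest, while the ND median lay inside the control range. The difference of 0.63 (SE 0.32, adjusted p = 0.188) did not pass, and was 0.40 without ND_47 and 0.24 without both animals. FBN1, the backbone of microfibrils, differed by 0.19 (SE 0.12, adjusted p = 0.276). THBS1, a matrix glycoprotein released by platelets and stressed cells, differed by 0.19 (SE 0.17, adjusted p = 0.447), and by 0.09 without Control_157. THBS3 was above background on no array (-0.02, adjusted p = 0.287).

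ITGAV, the alpha chain that pairs with several beta chains to bind vitronectin and latent TGF-beta, was the integrin gene that rose. It read 10.1, 10.6 and 10.8 in ND and 10.03, 10.3 and 10.4 in controls. In 7 of 10 ND animals the value was above every control, and 9 of 10 were above the control mean, with ND_31 the low exception. The difference was 0.30 (SE 0.08, 95% interval 0.13 to 0.47, adjusted p = 0.0284). The call was lost when ND_92, Control_02 or Control_184 was left out, with adjusted p between 0.0510 and 0.0546, and with arrays shifted to the same median (0.21, adjusted p = 0.0588). Without ND_47 and ND_92 together it was lost too (0.23, adjusted p = 0.0868). With a term for animal number up to 100 against above 100 the difference was 0.38 (adjusted p = 0.0548), and among the 8 animals of highest number, 3 ND and 5 controls, it was 0.37 (adjusted p = 0.0668).

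The other 6 integrin alpha genes did not pass. ITGA2, a collagen-binding chain, was under background in all 10 controls and above it in 6 ND animals. It read 2.47, 2.99 and 6.11 in ND and 2.47, 2.55 and 2.60 in controls, with the highest values in ND_47 (6.11) and ND_22 (4.53). The limma difference was 0.77 (SE 0.36, adjusted p = 0.1595). Against the background floor on each control array, the ND mean was 1.44-fold higher. That mean takes the 4 ND animals under background at their own values, so the fold is not a strict lower bound. It also includes ND_47 and ND_22. ITGA5, part of the fibronectin receptor, differed by 0.20, ITGA8, a chain of kidney development and mesangium, by -0.12, and ITGA2B, of platelets, by 0.06. Without ND_47 the difference was 0.46 for ITGA2, 0.11 for ITGA5 and 0.06 for ITGA8, the last with its sign turned. ITGA6 (-0.04, adjusted p = 0.217) and ITGAM, the chain of the leukocyte receptor Mac-1 (-0.03), were above background on no array.

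Of the 5 integrin beta genes none passed, and the median difference was 0.07. With arrays shifted to the same median it was -0.01, where that of all genes was -0.11. ITGB3, which pairs with ITGAV and with the platelet chain ITGA2B, read 3.44, 4.16 and 6.63 in ND and 2.75, 3.71 and 4.72 in controls. ND_47 (6.63) and ND_92 (6.15) were the 2 highest, and the difference was 0.86 (SE 0.39, adjusted p = 0.153). It was 0.63 without ND_47 and 0.40 without both animals. With the term for animal number it was 0.50, and among the 8 animals of highest number 0.04. ITGB1, the most widely shared beta chain, differed by 0.07 with a 95% interval from -0.10 to 0.25. ITGB5, another partner of ITGAV, differed by 0.07 (95% interval -0.05 to 0.19, adjusted p = 0.405), and ITGB1BP2 by 0.10. ITGB7, a lymphocyte chain, was above background on no array (-0.02, adjusted p = 0.264).

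Among the 9 cadherins none passed, with a range from -0.16 to 0.32 and a median of 0.04. With arrays shifted to the same median that median was -0.05, where that of all genes was -0.11. CDH24, a cadherin known from neural tissue, had the smallest adjusted p at 0.0549 and was dim. It read 2.63, 2.71 and 2.86 in ND and 2.74, 2.86 and 3.13 in controls, above background in 2 ND animals and 7 controls. The difference of -0.16 (SE 0.05) passed when ND_100, ND_193, Control_02, Control_134 or Control_156 was left out. CDH1, the E-cadherin of epithelial junctions, read 9.38, 10.5 and 11.5 in ND and 9.82, 10.1 and 10.6 in controls, and differed by 0.32 (SE 0.19, adjusted p = 0.251). CDH5, the endothelial cadherin, differed by 0.26, CDH11, of mesenchymal cells, by 0.24, CDH13 by 0.04 and CDH6, of the renal tubule, by 0.00. Without ND_47 the difference was 0.21 for CDH1, 0.08 for CDH5 and -0.09 for CDH13, and without ND_100 it was 0.37 for CDH11. CDH17 (-0.13, adjusted p = 0.196), above background on 1 control array, and CDHR4 (0.16, adjusted p = 0.209), above it on 1 ND array, gave no level in the other group.

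ADAMTS1, a secreted protease that cleaves proteoglycans such as versican and aggrecan, had the smallest p of the 65 genes. It read 11.2, 12.6 and 14.2 in ND and 10.5, 11.1 and 11.9 in controls. In 9 of 10 ND animals the value was above every control, and ND_31, at 11.2, was the exception. The mean was 12.75 in ND (SD 0.91, n = 10) and 11.12 in controls (SD 0.44, n = 10), a difference of 1.63 (SE 0.31, 95% interval 0.98 to 2.28, adjusted p = 0.00362). Its other probe set gave 1.59 (SE 0.32, adjusted p = 0.00497). Leaving out any 1 of the 20 animals kept the call, with differences from 1.46 to 1.80, and leaving out ND_47 and ND_92 together gave 1.33 (adjusted p = 0.00740). With the term for animal number it was 1.12 (adjusted p = 0.1202), and among the 8 animals of highest number 1.22 (adjusted p = 0.0741).

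**Figure D2:**
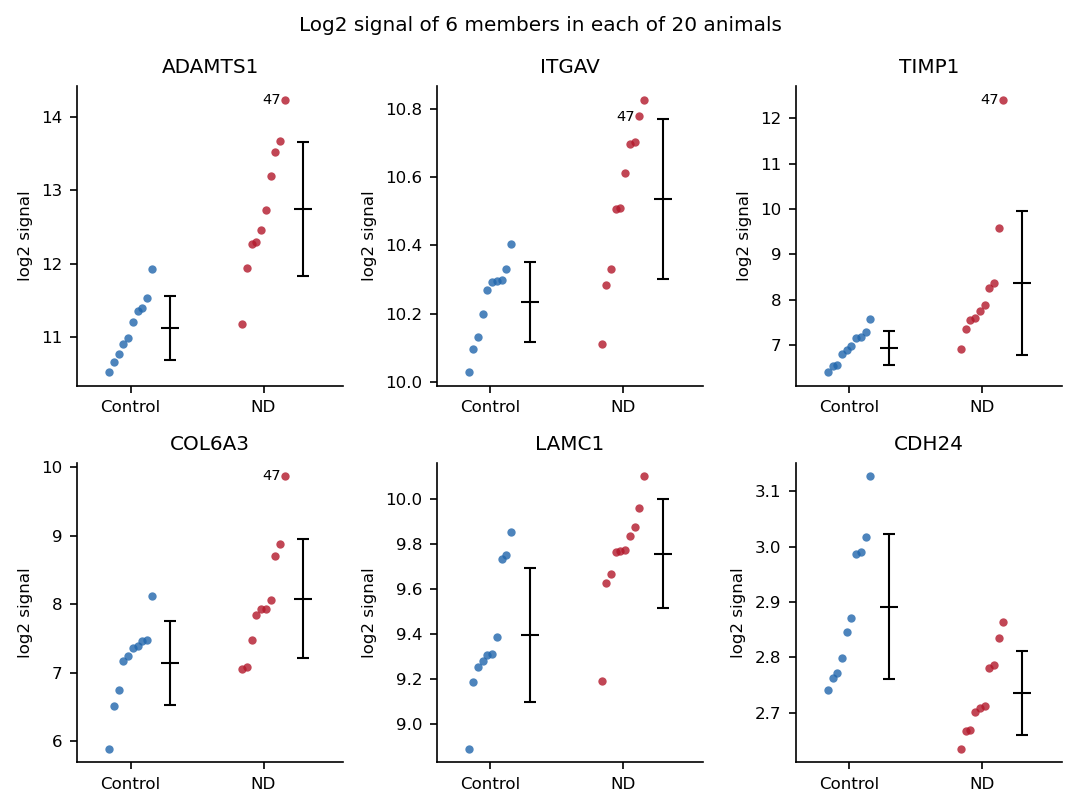
Log2 signal (vertical axis, a different range in each panel) of ADAMTS1, ITGAV, TIMP1, COL6A3, LAMC1 and CDH24 in each of 10 control (blue) and 10 ND (red) animals, ordered by value within a group. Bars give the mean and SD, and the label 47 marks ND_47 in the panels that carry it. For ADAMTS1, 9 of 10 ND animals lie above the highest control at 11.9, and for TIMP1 ND_47 lies apart at 12.4.

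The other 9 ADAM and ADAMTS genes did not pass. ADAMDEC1, a secreted ADAM-like protein of macrophages, read 2.81, 3.05 and 6.36 in ND and 2.81, 3.77 and 6.78 in controls. Controls were spread over that range, while 9 of 10 ND animals read 2.81 to 3.49 and ND_22 alone was at 6.36. The difference of -0.79 (SE 0.55, adjusted p = 0.316) was the most negative of the 65, and was -1.12 without ND_22 and -0.50 without Control_155. ADAM17, the sheddase that releases TNF, differed by 0.09, with ND_47 at 4.53 and the other 9 ND animals from 3.09 to 3.23, and by -0.05 without ND_47. ADAM9, a membrane sheddase, differed by 0.18, and by 0.10 without ND_47. ADAM10, the sheddase most closely related to ADAM17, was above background on no array. ADAMTS6 differed by -0.09, ADAMTS20 by -0.07 (adjusted p = 0.133) and ADAM28 by -0.04 (adjusted p = 0.148), the last on no array above background.

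ADAM15, a membrane protease that also binds integrins, was named after its values were seen. It read 3.99, 4.42 and 5.70 in ND and 4.44, 4.50 and 5.01 in controls. In 7 ND animals the value was below every control, while ND_47 (5.70) and ND_92 (5.14) were above every control. The difference was -0.09 over all 20 animals and did not pass. Without ND_47 and ND_92 it was -0.32 (adjusted p = 0.0499), and without ND_47 alone -0.22 (adjusted p = 0.239). ND_47 and ND_92 were the only ND animals above the control mean. Leaving them out removed every ND value against a fall, so that adjusted p cannot decide whether ADAM15 fell.

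None of the 8 MMP genes passed, and their median difference was 0.02. With arrays shifted to the same median it was -0.07, where that of all genes was -0.11. MMP14, the membrane-bound enzyme that activates MMP2, read 5.66, 5.83 and 6.08 in ND and 5.43, 5.71 and 5.76 in controls. In 6 ND animals the value was above every control, and the difference was 0.15 (SE 0.05, adjusted p = 0.0992). MMP2, the gelatinase that MMP14 activates, differed by -0.04 with a 95% interval from -0.38 to 0.31. MMP9, the gelatinase of neutrophils, was above background on no array.

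MMP7, or matrilysin, a protease made by epithelial cells, had the widest spread. It read 5.64, 8.36 and 14.6 in ND and 5.74, 7.70 and 8.61 in controls. ND_47 (14.6) and ND_92 (13.3) lay far above all other animals, and the other 8 ND animals read 5.64 to 9.23. The difference of 1.39 (SE 0.93, adjusted p = 0.295) did not pass, and was 0.76 without ND_47, 0.91 without ND_92 and 0.14 without both. MMP1, the interstitial collagenase, was above background in ND_47 only, at 8.52, with the other 9 ND animals from 2.08 to 2.19. MMP3, or stromelysin, read 4.58 in ND_47, 2.87 to 3.14 in the other 9 ND animals and up to 3.28 in controls. MMP13 differed by -0.05 and MMP20, the enamel protease, by -0.10 (adjusted p = 0.114), both above background on some arrays.

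None of the 4 TIMP genes passed in the comparison of all 20 animals. TIMP1, the secreted inhibitor that also acts as a growth factor, read 6.92, 7.81 and 12.4 in ND and 6.40, 6.93 and 7.57 in controls. In 7 of 10 ND animals the value was above every control, with ND_47 at 12.4 and ND_92 at 9.58 ahead of the other 8, which reached 8.37. The difference was 1.43 (SE 0.50, adjusted p = 0.0895). Without ND_47 it was smaller but passed, at 0.98 (SE 0.26, adjusted p = 0.0290), and without both animals it was 0.78 (adjusted p = 0.0245). The animals left out held the highest ND values of TIMP1, and the SE fell with their removal. These calls therefore depend on which values were removed and are not a separate test. Among the 8 animals of highest number the difference was 0.54, and with the term for animal number 0.87 (adjusted p = 0.647).

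TIMP2, which inhibits MMP2 and also helps MMP14 to activate it, read 8.04, 8.46 and 9.15 in ND and 7.34, 8.14 and 8.68 in controls. Its groups overlapped over most of their range, and the difference was 0.47 (SE 0.19, adjusted p = 0.115). The other probe set of TIMP2 gave 0.52 (SE 0.22, adjusted p = 0.136). TIMP3, the inhibitor that stays bound to matrix, read 4.24, 5.69 and 7.89 in ND and 3.997, 4.98 and 6.63 in controls, a difference of 0.51 (SE 0.45). It was 0.26 without ND_47, 0.17 without ND_47 and ND_92, and -0.30 with the term for animal number. TIMP4 (-0.03, adjusted p = 0.215) was above background on no array. The median over the 4 TIMP genes was 0.49, 0.33 without ND_47 and 0.17 with the term for animal number.

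ND_47 held the highest value of its group more often than any other animal. Among the 39 genes above background on all arrays it was the highest ND animal in 19, or 48.7%, against 26.9% of all genes so detected, and it was the highest of all 20 animals in 18. The mean signal of those 39 genes was 8.09 in ND_47, 7.68 in ND_92, 7.003 to 7.50 in the other 8 ND animals and 6.89 to 7.32 in controls. CDH5 reached 10.2 in ND_47 against 9.20 in ND_92, and COL5A1 reached 7.47 against at most 6.69 in the other 9 ND animals. The genes were not uniformly high there, since ND_47 was also the lowest ND animal in 7 of the 39, ITGA8, LAMB1 and ITGB5 among them.

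Marker signal moved with it. ND_47 had the highest mean signal of the 20 animals for leukocyte markers (6.24, controls 4.67 to 5.20), for endothelial markers (7.34, controls 6.09 to 6.50, over the 9 markers other than CDH5, which is itself among the 65 genes) and for fibroblast, mesangial and smooth muscle markers (9.03, controls 7.18 to 8.28). Its mean over proximal tubule markers was the lowest, 10.3 against 10.9 to 12.1 in the other 9 ND animals and 11.3 to 11.98 in controls. Of these lists, KDR among the endothelial markers was under background on every array. Their part in the values of ND_47 was not tested.

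**Figure D3:**
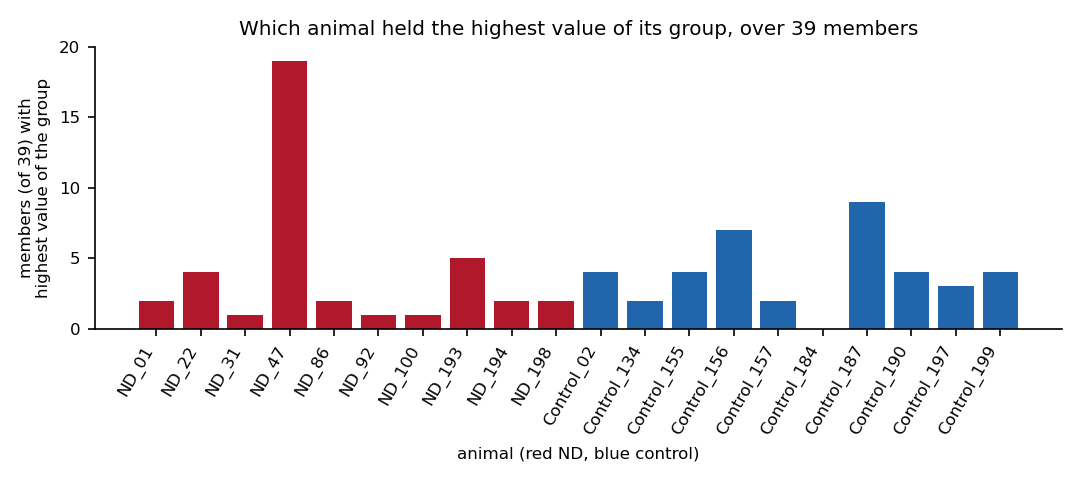
Number of genes (vertical axis), of the 39 above background on all arrays, in which each animal (horizontal axis, red ND, blue control) held the highest value of its group. ND_47 has 19, and the next are Control_187 with 9 and Control_156 with 7.

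The spread between animals was wider in ND for most genes. The SD was larger in ND than in controls for 46 of the 65 genes, or 70.8%, against 65.4% of all genes. The median SD was 0.28 in ND and 0.15 in controls, against 0.29 and 0.23 over all genes. For the 39 genes above background on all arrays it was 0.43 and 0.27, against 0.32 and 0.26 over all genes so detected. These SDs include ND_47, which alone made some of them wide. MMP1 had an SD of 2.02 in ND, with ND_47 at 8.52 and the other 9 ND animals from 2.08 to 2.19.

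Across the 20 animals, the deviation of ADAMTS1 from its group mean had its highest positive correlations with that of TIMP3 (Pearson's r = 0.803), MMP7 (0.744), ITGA2 (0.673), CDH1 (0.671) and TIMP1 (0.656). Against the r of all genes with ADAMTS1, these lay at percentiles 99.8, 99.1, 97.4, 97.2 and 96.7. Without ND_47, over 19 animals, the 5 values were 0.727, 0.627, 0.516, 0.541 and 0.490, and LAMC1 (0.682) came between TIMP3 and MMP7. In the opposite direction, CDH6 had an r of -0.673, and -0.662 without ND_47. The arrays share their scaling, and ITGA2 was above background in ND animals only.

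The 65 genes were covered by 119 probe sets, and 32 genes had more than 1. Of the 119 probe sets 3 passed the test (the background over all probe sets was 7.13%), both of ADAMTS1 and that of ITGAV, and 0 genes had probe sets called in opposite directions. In 9 genes at least 2 probe sets were above background on all arrays, and in 7 of them the estimates had the same sign. The exceptions were ITGA8 and LAMC1. LAMC1 gave 0.36 with its brightest probe set, and -0.15, 0.36 and -0.07 with the others. THBS1 gave 0.19 with its brightest probe set, whose signal averaged 13.1 in controls, and 0.80 (adjusted p = 0.170) and 0.76 (adjusted p = 0.129) with dimmer ones. A probe set of ADAM17 that was above background on some arrays gave 0.58 (SE 0.19, adjusted p = 0.0695), against 0.09 for the brightest.

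**Figure D4:**
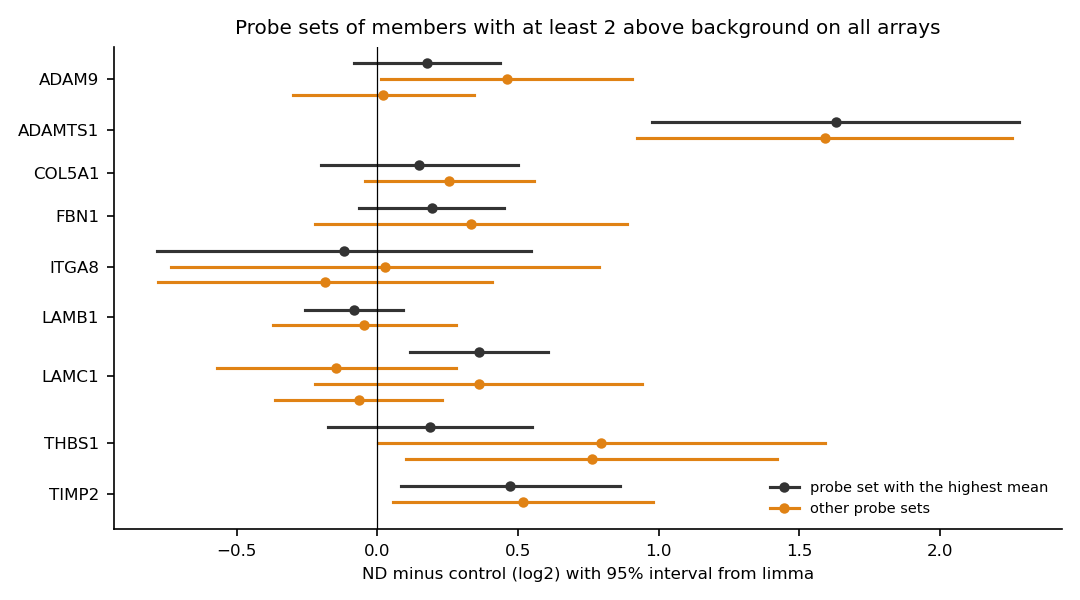
Difference between ND and control (log2, horizontal axis) of each probe set above background on all arrays, for the 9 genes with at least 2 such probe sets. Points are limma estimates with 95% intervals, black for the probe set with the highest mean and orange for the others. The 2 probe sets of ADAMTS1 lie at 1.63 and 1.59, and those of LAMC1 and ITGA8 lie on both sides of 0.

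Genes that work beside these families were followed in 7 lists of matrix and adhesion genes, 93 genes in all. Of the 93, 8 were higher and 2 lower in ND, or 10.8% against 9.99% of all genes, and the median difference was 0.19. In 3 lists none passed: 0 of 14 for basement membrane and glycoproteins (at an unadjusted p under 0.05, 3 were higher), 0 of 11 for collagen processing (0 at that level) and 0 of 10 for cadherin adaptors (2 higher and 1 lower at that level). SPARC, a collagen-binding glycoprotein, differed by 0.23 (adjusted p = 0.123), and TNXB, or tenascin X, by 0.86 (adjusted p = 0.0953). SERPINH1, the collagen chaperone, differed by 0.61 (adjusted p = 0.235) and PEPD, a dipeptidase of collagen breakdown, by -0.29 (adjusted p = 0.344). CTNNB1, or beta-catenin, which ties cadherins to actin, differed by 0.19 (adjusted p = 0.142), and NECTIN1 was above background on no array (-0.04, adjusted p = 0.130).

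Of the 19 genes of plasmin, cathepsins and their inhibitors, 2 rose and 0 fell. This was 10.5% of the list, near the 9.99% of all genes called in either direction. PLAU, the urokinase that activates plasminogen, read 6.10, 7.14 and 9.69 in ND and 4.41, 5.33 and 5.89 in controls. All 10 ND animals were above all 10 controls, and the difference was 2.13 (SE 0.36, adjusted p = 0.00145). CTSS, a lysosomal cathepsin of antigen-presenting cells, was 0.85 higher (SE 0.16, adjusted p = 0.00259), with 10 of 10 ND animals above the control mean. Of the 16 proteoglycan and hyaluronan genes, HYAL2, a hyaluronidase, fell by 0.74 (SE 0.14, adjusted p = 0.00311), the 1 call of that list (6.25%). LUM, the collagen-binding proteoglycan lumican, differed by 1.33 (SE 0.42, adjusted p = 0.0618), and passed without ND_22, ND_198, Control_156 or Control_157.

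Of 10 integrin adaptors and kinases, FYN, a Src-family kinase, was higher by 0.92 (SE 0.21, adjusted p = 0.0121) and TNS3, a tensin of focal adhesions, by 0.39 (SE 0.10, adjusted p = 0.0202). LIMS1, an adaptor that binds integrin-linked kinase, fell by 0.20 (SE 0.05, adjusted p = 0.0256). These 3 were 30.0% of the list, against 9.99% of all genes called in either direction. Of 13 other matrix and adhesion receptors, 4 rose and 0 fell, or 30.8%. Both lists are short and were chosen with earlier results of these data known. CD47, the receptor of THBS1, was higher by 0.61 (SE 0.10, adjusted p = 0.000983), and ADGRE5, an adhesion receptor of leukocytes, by 1.22 (SE 0.22, adjusted p = 0.00251). VCAM1 and ICAM1, the endothelial ligands of leukocyte integrins, were higher by 1.70 (SE 0.31, adjusted p = 0.00275) and 0.96 (SE 0.22, adjusted p = 0.0110). Of the 10 calls in these lists, those of CD47 and ADGRE5 held with the term for animal number, and the other 8 did not pass, with PLAU at an adjusted p of 0.0592. Among the 8 animals of highest number neither passed, with CD47 at 0.59 (adjusted p = 0.101) and ADGRE5 at 0.69 (adjusted p = 0.399).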

How the data were processed

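Per the labels' protocols, RNA was taken from kidney with TRIzol and 250 ng of it was copied into biotin-tagged cRNA for hybridization, 1 array for each of 20 samples. The authors summarized each array to a value per probe set before they deposited the table, and those values, from 0.88 to 16.2, were read as log2 from their range. The sources used here do not give the background correction, summarization or normalization, which can move the balance of higher and lower calls. Depth does not apply to arrays, whose number limits the precision.

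Of 24123 probe sets, 124 control probe sets were left out and 23999 tested, 64 reporter probe sets among them. The platform annotation, which can be old, gave 10069 probe sets 1 symbol, 198 several and 13732 none here; 9961 matched RefSeq by Entrez ID, with 0 symbols changed. The sources used here name no genome build for the array, so no coordinates or sequences are printed.

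Groups were compared with limma 3.58.1 in R 4.3.3 (lmFit and eBayes, Benjamini-Hochberg), tested on simulated data with known changes. Background is the highest value of 23 control probe sets. The genes named are those past the threshold, the up to 3 of smallest p in each family (up to 2 in each gene list, with those past the threshold), the 5 most like ADAMTS1, and others chosen after their values were seen. The members and gene lists were chosen with earlier results of these data known. Alternatives were array scaling, a filter on dim probe sets, variance model, array weights, animal number, animals left out, gene means, an adjusted p under 0.1 and a minimum fold of 1.2.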

Additional observations from a re-analysis of the deposited data

Results flagged for a closer look

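Each of the 65 genes was examined for an animal far from the rest of its group, by the gap to the nearest animal over the range of the group (Dixon's 95% critical value). Of 130 groups, 19 held such an animal. The critical value flags about 1 in 20 independent groups of normally distributed values, but the groups here share the same 20 arrays. The rate over all genes was not computed, so the 19 cannot be read as an excess. In ND_47, 5 genes stood apart: MMP1 at 8.52 (next ND animal 2.19), ADAM17 at 4.53 (next 3.23), MMP3 at 4.58 (next 3.14), COL8A1 at 4.87 (next 3.04) and TIMP1 at 12.4 (next 9.58). In other ND animals, ADAMDEC1 read 6.36 in ND_22 (next 3.49), ITGB1BP2 read 4.37 in ND_198 (next 3.66), and LAMC1 read 9.19 in ND_31, below the next at 9.63. Among controls, MMP14 read 5.43 in Control_197, below the next at 5.66, and COL3A1 read 4.31 in Control_02 (next 3.60). The other 9 were near or under background. In Control_190 they were ADAMTS20 at 2.90 (next 2.79), MMP1 at 2.30 (next 2.21), MMP13 at 3.12 (next 3.01) and COL5A2 at 2.88 (next 2.47). In ND_193 they were CDH17 at 2.43 (next 2.34), COL2A1 at 2.12 (next 2.07) and COL7A1 at 2.65 (next 2.55). COL10A1 read 2.33 in Control_157 (next 2.24) and COL17A1 read 2.73 in Control_197 (next 2.49).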

How the results depend on the processing

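The count of 2 higher genes of 65 became 0 with the term for animal number and among the 8 animals of highest number, 1 with a minimum fold of 1.2, and 6 at an adjusted p under 0.1. Leaving out each animal in turn gave 1 to 3 higher. Without ND_47 and ND_92 together the count stayed 2, with TIMP1 passing in place of ITGAV. The count of 0 lower became 15 with arrays shifted to the same median, where 1644 of all 6765 genes were lower. It became 1 with quantile normalization, gene means, an adjusted p under 0.1 or without ND_47 and ND_92. Those animals held the highest ND values of TIMP1 and ADAM15, so the calls gained without them depend on which values were removed. Leaving out each animal gave 0 to 1 lower. The median difference of 0.04 became -0.048 with shifted arrays, 0.14 with the filter on dim probe sets, -0.0075 with array weights, -0.017 among the 8 animals of highest number and -0.0094 without ND_47 and ND_92, and ranged from -0.013 to 0.063 on leaving out each animal. Direction turned in at least 1 setting for 29 of the 65 genes, 19 of them among the 39 above background on all arrays. With shifted arrays these were ADAM17 (-0.00051), CDH13 (-0.048), MMP3 (-0.044), ITGA2B (-0.030), ITGB1 (-0.015) and ITGB5 (-0.019). With quantile normalization they were ADAM10 (0.014), MMP9 (0.0049), THBS3 (0.0062), COL2A1 (0.020), COL7A1 (0.0042) and ITGA2B (-0.036). With array weights they were ADAM17 (-0.036), CDH13 (-0.088), MMP3 (-0.077) and ITGA8 (0.059), and with gene means MMP3 (-0.011). With the number term they were ADAMTS6 (0.0079), CDH13 (-0.016), CDH5 (-0.019), CDH6 (0.23), MMP13 (0.0049), TIMP3 (-0.30), COL1A2 (0.060), COL2A1 (0.010), COL7A1 (0.013), ITGA8 (0.13) and, of the gene lists, PEPD (0.032). Among the 8 animals of highest number they were ADAM17 (-0.060), ADAM9 (-0.11), CDH13 (-0.018), CDH5 (-0.098), CDH6 (0.37), CDHR4 (-0.012), MMP1 (-0.049), MMP3 (-0.11), MMP7 (-0.29), COL2A1 (0.0055), COL7A1 (0.0077), COL8A1 (-0.039), ITGA2 (-0.049), ITGA5 (-0.25), ITGA8 (0.26), LAMB1 (0.039), LAMB2 (-0.11), PEPD (0.032) and SERPINH1 (-0.063). Without ND_47 and ND_92 they were ADAM17 (-0.043), CDH13 (-0.23), CDH5 (-0.029), CDH6 (0.11), MMP1 (-0.045), MMP3 (-0.11) and ITGA8 (0.18). Leaving out each animal gave ranges on both sides of 0 for CDH6 (-0.15 to 0.060), MMP2 (-0.097 to 0.056), ADAM17 (-0.046 to 0.11), CDH13 (-0.090 to 0.13), MMP1 (-0.049 to 0.67), MMP3 (-0.11 to 0.076), ITGA8 (-0.27 to 0.063), ITGB1BP2 (-0.00031 to 0.12) and COL1A2 (-0.088 to 0.0020). With shifted arrays every difference was lowered by the same 0.09, so estimates between 0 and that amount turned. For the other settings the cause was not tested. Over all probe sets, 913 higher and 799 lower calls became 1061 and 7728 with shifted arrays, 917 and 1198 with quantile normalization, 1059 and 1244 without ND_193, 86 and 133 with the minimum fold, 179 and 326 with the number term, and 19 and 38 among the 8 animals of highest number. Over the 65 genes, 17 genes of the lists, ITGB2 and THBS2, and 30 settings, 2328 of 2496 values kept direction and side of the threshold. No paired analysis was possible because the groups share no animal number. Taking log2 of linear values was not run, since the deposited values were already on a log scale. The 26 genes not above background on every array limit what can be read of their levels.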
